A study of Mus musculus with 10 samples.

Results

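The 35 genes described here encode the enzymes, carriers and regulators with which the lactating mammary gland makes fatty acids and joins them into triglyceride, the main lipid of milk. They were chosen by gene symbol from a list of this pathway. No threshold on their measured values was applied, but earlier results of these data were known when the list was made. All 35 were found by Ensembl identifier among the 35275 genes of the deposited table. RNA was sequenced from whole mammary glands of nursing mice of the inbred strain BALB/c. Per the labels, 50 µL of lipopolysaccharide (LPS) of E. coli at 0.4 mg/mL entered the 4th gland of one flank through the teat on day 3 of lactation. Sterile phosphate-buffered saline (PBS) entered the 4th gland of the other flank, and glands were taken 12 h later. The 5 LPS and 5 PBS libraries make up the 2 groups, and each control gland therefore shared its animal with an LPS gland. The labels give n = 9, do not tie the 10 libraries to animals, and leave unsaid whether libraries of the same number share a mouse. The p-values set the difference between groups against the spread among glands of a group, without a term for the animal. No gland without an injection was analysed here.

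Milk fat is made by the secretory epithelial cell from fatty acids of its own synthesis and from fatty acids taken up out of blood lipid. In its own synthesis citrate leaves the mitochondrion and is cleaved to acetyl-CoA, acetyl-CoA carboxylase makes malonyl-CoA, and fatty acid synthase extends the chain. In the lactating gland the thioesterase encoded by Olah releases the chain early, at medium length, which gives milk its medium-chain fatty acids. Elongases and desaturases then modify longer chains, acyl-CoA synthetases activate them, and acyltransferases of the endoplasmic reticulum place them on glycerol. The transcription factors SREBP-1c and ChREBP, encoded by Srebf1 and Mlxipl, are known to drive many of these genes.

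Depth was 15734303 to 18869545 counted reads per library. The pathway's marker genes Olah and Fasn had mean levels of 133.4 and 194.4 FPKM (a read density per kilobase of gene, scaled to the reads counted in the library) over all 10 libraries, and 13 markers of milk-producing epithelium took 32.3 to 50% of summed FPKM. PBS 2, PBS 4 and LPS 3 stood apart in 13 B and T cell markers, none of which passed the filter used for the test. The mean log2(FPKM + 1) of these markers was 2.71, 1.86 and 1.63 in those libraries and 0.117 to 0.726 in the others. A fit without these 3 libraries, with fewer glands in both groups, is given for Scd1 and the called pathway and further lipid genes. It is not given for the cell markers. Beside it stands a fit on all 10 libraries with that mean as a second term, the B and T cell covariate. A change was tested with limma over all 11414 genes with at least 1 FPKM in at least 5 of 10 libraries, on log2(FPKM + 1), as LPS minus PBS. Calls required an adjusted p (Benjamini-Hochberg over all genes tested) below 0.05. Group levels are given as mean ± SD of the 5 libraries, and a log2 change with its SE. PCR copies cannot be told from separate molecules, so read numbers bound counting error only, and without a stated strand setting, reads of overlapping antisense genes cannot be separated.

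In LPS glands 12 h after injection, Olah fell 2.35-fold and Acsl1, which encodes a long-chain acyl-CoA synthetase, fell 1.64-fold, while the synthase gene Fasn did not pass the test and differed by only 0.06 on the log2 scale between groups. Of 35 genes, 34 passed the filter. By limma 2 were lower in LPS glands, 0 were higher and 32 were not called. Over all tested genes 0.605% were called lower (69 genes) and 2.63% higher (300 genes), so 2 of 34 is a larger share than the background, while 0 of 34 higher calls lies near the background for so few genes. The 2 calls were Olah and Acsl1. In bulk RNA, fewer cells of a type and less RNA per cell cannot be told apart.

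The groups did not overlap for 3 of the 34 genes, Olah, Acsl1 and the desaturase gene Scd1. All 3 were lower in LPS glands, a pattern that 1.22% of all tested genes had (139 genes). None of the 34 was separated in the other direction, against 3.53% of all tested genes (403 genes). At an unadjusted limma p below 0.05, 7 genes were lower (Olah, Acsl1, Scd1, Acaca, Me1, Acacb and Lpl) against 4.07% of all tested genes (465 genes). Only Elovl5 was higher at that threshold, against 12.4% of all tested genes (1414 genes).

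Most changes were small. The median log2 change of the 34 genes was -0.03, against 0.05 over all tested genes, and 31 of 34 lay within 0.5 of 0 (91.2%, against 94.1% of all tested genes). A negative change was found for 18 genes (52.9%, against 38.6% of all tested genes). For 31 of the 32 genes not called, the 95% interval of the change lay inside a 2-fold difference, Scd1 being the exception. These signs depend on the scaling: 18 of 34 changes were negative as deposited, 21 after median-of-ratios scaling and 30 when FPKM were rescaled to the summed level outside milk proteins. In the same order, the median of the 34 genes was -0.03, -0.09 and -0.24, and that of all tested genes 0.05, -0.01 and -0.13. Both medians thus moved down together.

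**Figure D1:**
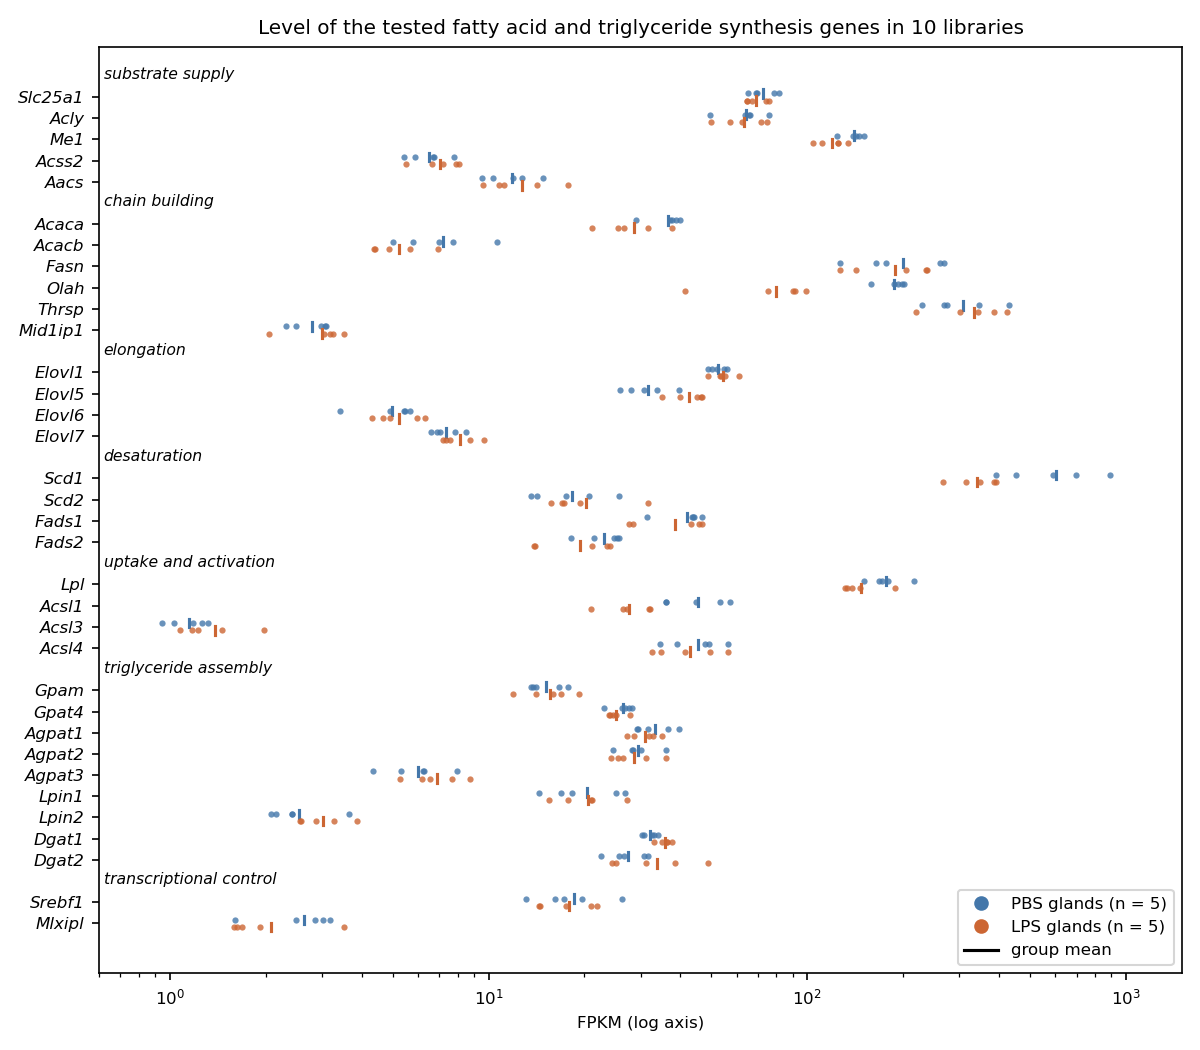
Level of each tested gene (FPKM, log axis) in 5 PBS and 5 LPS libraries, by step of the pathway. Points are libraries and vertical bars are group means. Olah, Acsl1 and Scd1 are the genes in which the points of the groups do not mix, and mean levels span from 1.26 FPKM for Acsl3 to 473.3 FPKM for Scd1.

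The pathway's transcripts differed widely in abundance per length. Scd1 had the highest mean over the 10 libraries at 473.3 FPKM, followed by Thrsp at 321.8, Fasn at 194.4, Lpl at 162.3, Olah at 133.4 and Me1 at 130.1 FPKM. These 6 genes were the ones with a mean of at least 100 FPKM, and 4 of the tested genes had a mean under 5 FPKM. The fewest reads of a tested gene in any library were 63. Elovl3, an elongase of saturated very long chains, had 0 to 3 reads in each library and was not tested.

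Summed over all 35 genes, FPKM were 2219, 2303, 2669, 2147 and 2191 in PBS 1 to 5 and 1812, 1941, 1989, 1957 and 1710 in LPS 1 to 5. The groups did not overlap in this sum, which was 0.326 to 0.413% of all FPKM in PBS and 0.255 to 0.308% in LPS glands. Without Scd1 alone the sum was 1520 to 1911 FPKM in PBS and 1323 to 1675 FPKM in LPS glands, and the groups already overlapped. Without Olah, Acsl1 and Scd1 the sum was 1286 to 1654 FPKM in PBS and 1227 to 1606 FPKM in LPS glands, and the groups overlapped over most of their range.

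Substrate supply comes first in the pathway. Of its 5 genes none was called by limma, edgeR or DESeq2, and 1 had an unadjusted p below 0.05. Me1 encodes cytosolic malic enzyme, a source of the NADPH that chain building uses, and was the most abundant of the step. Its FPKM were 142.1, 124.0, 145.5, 138.8 and 150.8 in PBS 1 to 5 and 124.8, 104.0, 111.5, 124.8 and 134.4 in LPS 1 to 5. The groups overlapped, with 2 LPS libraries below every PBS library, and the log2 change was -0.23 ± 0.09 (SE; unadjusted p = 0.0289, limma adjusted p = 0.23). In the reference transcripts 22.9% of the 50-base stretches of Me1 also occur in other genes, mostly in Gm7049, so its level is uncertain where reads could be split.

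The citrate carrier gene Slc25a1 was at 72.8 ± 6.82 FPKM in PBS and 69.3 ± 5.39 in LPS glands (SD, n = 5). Acly, which encodes the ATP citrate lyase that turns the exported citrate into acetyl-CoA, was at 64.2 ± 9.56 and 63.2 ± 10.2 FPKM. Both were thus nearly level between groups, with log2 changes of -0.07 and -0.02. Acss2 makes acetyl-CoA from acetate in the cytosol and was at 6.51 ± 0.897 FPKM in PBS and 7.06 ± 1.03 in LPS glands. Aacs, which activates the ketone body acetoacetate, was at 11.9 ± 2.08 and 12.7 ± 3.26 FPKM. Neither passed the test (limma adjusted p = 0.749 for Acss2 and 0.879 for Aacs).

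Chain building held the largest single difference of the pathway. Of its 6 genes limma and edgeR called only Olah, which fell, and DESeq2 also called Acaca lower (adjusted p = 0.04). The median log2 change of the step was -0.21. Olah (ENSMUSG00000026645, protein-coding) spans positions 3341982 to 3366591 of chromosome 2 (mm10, minus strand) in the authors' deposited table. Fasn (ENSMUSG00000025153, protein-coding) spans 120805846 to 120824547 of chromosome 11, again in minus orientation, in the GENCODE M21 annotation of the same genome. The 250 bases before RefSeq's start of each gene are shown because the encoded enzymes act on the same growing chain and limma called only Olah of them. They are from RefSeq on GRCm38.p6, the assembly behind mm10, are read 5′ to 3′ on the gene's own strand, and carry motif matches in capitals.
Olah, chr2:3366570-3366819, minus strand: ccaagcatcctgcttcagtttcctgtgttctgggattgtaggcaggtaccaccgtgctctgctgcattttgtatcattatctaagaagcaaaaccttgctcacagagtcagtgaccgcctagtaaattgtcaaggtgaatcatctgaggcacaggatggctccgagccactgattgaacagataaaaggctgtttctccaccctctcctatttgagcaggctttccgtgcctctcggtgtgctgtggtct
Fasn, chr11:120824548-120824797, minus strand: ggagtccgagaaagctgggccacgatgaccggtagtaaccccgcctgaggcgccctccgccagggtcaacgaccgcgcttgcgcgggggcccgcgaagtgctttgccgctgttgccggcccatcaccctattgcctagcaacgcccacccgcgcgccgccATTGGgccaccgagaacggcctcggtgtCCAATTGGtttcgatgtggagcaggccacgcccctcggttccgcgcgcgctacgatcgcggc
Motifs searched on both strands were CCAAT, the GC box GGGCGG, the palindromic E-box CACGTG, the STAT form TTCNNNGAA, the sterol element TCACNCCAC and the NF-kB site by its usual consensus. The Olah window held none of them and had 49.2% G and C. The Fasn window held 3 CCAAT matches, 90, 62 and 59 bases before the start, 2 of them overlapping on opposite strands, and had 69.2% G and C. The bases of the Olah window nearest its start lie inside the span that the authors' deposited table gives the gene. In the GENCODE M21 annotation Olah extends further upstream, to position 3397210, so the whole window lies within that longer gene model.

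Over all 32851 windows of this length in the RefSeq table, CCAAT occurred in 33.8%, the GC box in 32.7%, CACGTG in 6.02%, TTCNNNGAA in 7.02%, the sterol element in 1.05% and the NF-kB site in 3.9%. The table held 37 windows of 27 of the 35 genes. Of these windows 16 held CCAAT (43.2%), 21 the GC box (56.8%), 4 CACGTG (10.8%), 1 TTCNNNGAA (2.7%), 2 the sterol element (5.41%) and 6 the NF-kB site (16.2%). Windows of 1 gene share sequence context and are not independent. A match is a match of letters, and neither a match nor its absence bears on whether a factor binds there.

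FPKM of Olah were 197.8, 200.7, 158.2, 192.5 and 186.9 in PBS 1 to 5 and 90.5, 41.4, 91.4, 99.4 and 75.3 in LPS 1 to 5. Every LPS gland was below every PBS gland, and LPS 2 was the lowest of all. The group means were 187.2 ± 17.1 and 79.6 ± 23.0 FPKM, a log2 change of -1.28 ± 0.20 with a 95% interval of -1.71 to -0.85 (limma adjusted p = 0.00715). Olah was called again in all 10 fits that left out a single library, with adjusted p from 0.000904 to 0.0251. Without the 3 libraries rich in B and T cell transcripts its change was -1.29, but the adjusted p was 0.0715, the highest of 12 other alternatives (lowest 4.28e-08). With the B and T cell covariate on all 10 libraries Olah was called (limma adjusted p = 0.00737).

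Fasn, which carries out every step of chain extension, was at 126.4, 269.6, 261.3, 176.2 and 164.1 FPKM in PBS 1 to 5 and at 126.6, 237.4, 204.1, 236.1 and 142.0 FPKM in LPS 1 to 5. The range of the LPS glands lay within that of the PBS glands. The log2 change was -0.06 ± 0.23 with a 95% interval of -0.57 to 0.44 (limma adjusted p = 0.938). The ratio of Olah to Fasn, both as FPKM in the same library, was 0.605 to 1.56 in PBS (median 1.09) and 0.174 to 0.715 in LPS glands (median 0.448), so the ranges overlapped slightly. That of Olah to Acaca was 4.08 to 6.81 in PBS and 1.63 to 4.29 in LPS glands.

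**Figure D2:**
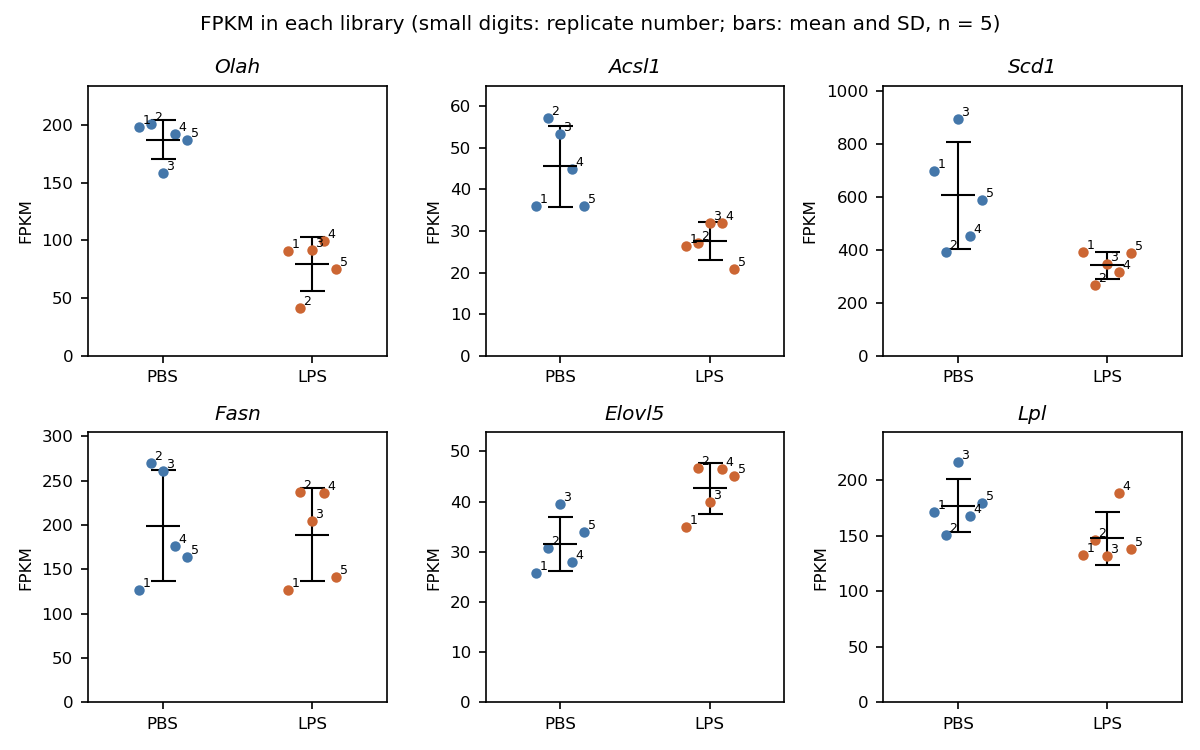
FPKM of 6 genes in each library, on linear axes that start at 0. Points are libraries with their replicate number, and bars give the group mean and SD (n = 5). Olah is separated most clearly, Acsl1 and Scd1 narrowly, and the Fasn values of LPS glands lie within the range of PBS glands.

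Acaca and Acacb encode the acetyl-CoA carboxylases, the former of the cytosol and the latter of the mitochondrial surface, where malonyl-CoA restrains fatty acid import for oxidation. Acaca was at 36.5 ± 4.33 FPKM in PBS and 28.5 ± 6.36 in LPS glands (log2 change -0.36 ± 0.14, unadjusted p = 0.025, limma adjusted p = 0.215). LPS 4, at 37.7 FPKM, was as high as the PBS glands, and 3 LPS libraries were below all of them. DESeq2 called Acaca lower (adjusted p = 0.04), and edgeR did not (adjusted p = 0.118), and over all alternatives its adjusted p ran from 0.04 to 0.463. For Acaca 30.4% of the 50-base stretches of its transcripts are shared with other genes, mostly Gm5182, so its level is uncertain. Acacb was at 7.21 ± 2.14 and 5.25 ± 1.08 FPKM (log2 change -0.37, limma adjusted p = 0.296).

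Thrsp, a small nuclear and cytosolic protein that promotes fatty acid synthesis in the mammary gland, was the most abundant transcript of chain building. Its FPKM were 268.7, 428.5, 275.5, 344.8 and 228.5 in PBS 1 to 5 and 343.5, 422.6, 384.3, 301.8 and 220.1 in LPS 1 to 5. The groups covered nearly the same range (log2 change 0.11, limma adjusted p = 0.847). Its relative Mid1ip1, which binds acetyl-CoA carboxylase and aids its assembly, was at 2.79 ± 0.360 FPKM in PBS and 3.00 ± 0.562 in LPS glands (log2 change 0.07).

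**Figure D3:**
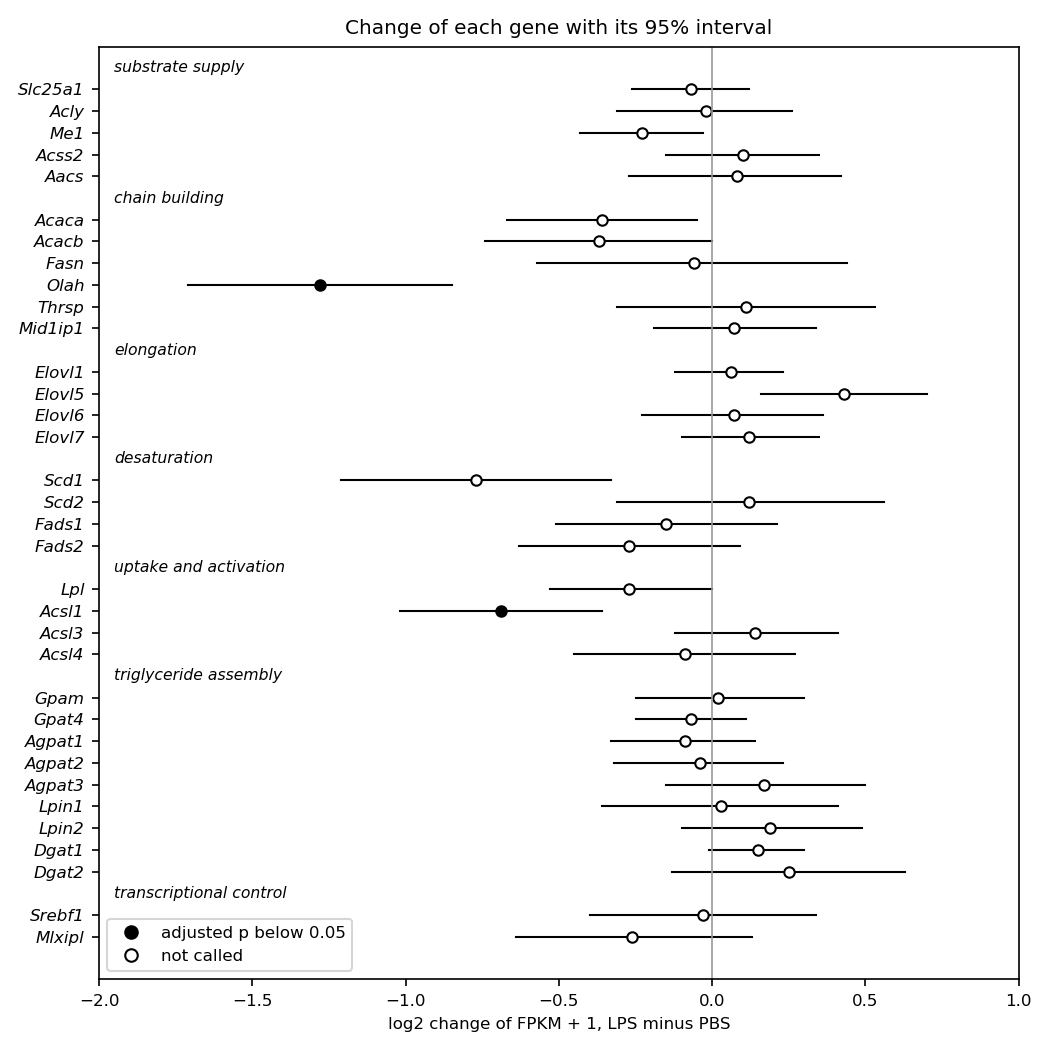
Log2 change of each tested gene (LPS minus PBS, on log2(FPKM + 1)) with its 95% interval, by step of the pathway. Filled points are genes with an adjusted p below 0.05. Olah and Acsl1 are the filled points, at -1.28 and -0.69, and the 9 genes of triglyceride assembly lie between -0.09 and 0.25.

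Elongation had 4 tested genes, none of them called by limma, edgeR or DESeq2, and a median log2 change of 0.09. Elovl5, which extends polyunsaturated chains, differed most, at 31.6 ± 5.42 FPKM in PBS and 42.7 ± 5.11 in LPS glands. In 4 of 5 LPS libraries it was above every PBS library, and the log2 change was 0.43 ± 0.12 (95% interval 0.16 to 0.70, unadjusted p = 0.00409, limma adjusted p = 0.0821). It was called without PBS 3 (adjusted p = 0.0365) and without LPS 1 (adjusted p = 0.0397). Over the 12 other alternatives its adjusted p ran from 0.0275 to 0.333.

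Elovl1, an elongase of saturated and monounsaturated very long chains, was the most abundant of the step. Its FPKM were 49.0, 52.0, 54.7, 50.1 and 56.0 in PBS 1 to 5 and 49.0, 61.2, 53.7, 55.4 and 53.4 in LPS 1 to 5, a spread of 1.25-fold over all 10 libraries. Elovl6, which lengthens palmitate towards stearate, was at 4.98 ± 0.914 FPKM in PBS and 5.24 ± 0.872 in LPS glands. Elovl7, of saturated chains, was at 7.37 ± 0.781 and 8.12 ± 1.07 FPKM. These 3 genes had log2 changes of 0.06, 0.07 and 0.12, and all 3 turned negative when FPKM were rescaled outside milk proteins (-0.16, -0.12 and -0.07).

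Desaturation had no call by limma in 4 genes, although Scd1 was separated between groups. Scd1 encodes the stearoyl-CoA desaturase that places the first double bond and makes oleic acid, and was the most abundant transcript of the whole pathway (ENSMUSG00000037071, chromosome 19, 44394451 to 44407709, minus strand of mm10 in the authors' deposited table). Its FPKM were 699.0, 391.5, 894.1, 451.1 and 589.8 in PBS 1 to 5 and 390.6, 266.4, 347.8, 315.9 and 386.7 in LPS 1 to 5. The highest LPS library lay just under the lowest PBS library, and the PBS glands varied far more among themselves. The means were 605.1 ± 201.2 and 341.5 ± 52.0 FPKM, with a log2 change of -0.77 ± 0.20 and a 95% interval of -1.21 to -0.33 (limma adjusted p = 0.0608).

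The call of Scd1 depended on the fit. It passed in 1 of 10 fits that left out a single library and in 6 of 12 other alternatives, among them DESeq2 (adjusted p = 0.00186). It passed without PBS 2 (0.0255) and without the 3 libraries rich in B and T cell transcripts (0.048, with a log2 change of -1.09). With the B and T cell covariate it passed too (0.0079), and with edgeR it did not (0.0541). Over fits that left out 1 library its adjusted p ran from 0.0255 to 0.165, and over the other alternatives from 0.00186 to 0.16, with a negative change in each. In its transcripts 4.56% of the 50-base stretches are shared with other genes, mostly Scd3. The related Scd2 was at 18.3 ± 4.98 FPKM in PBS and 20.2 ± 6.54 in LPS glands (log2 change 0.12, and -0.08 when rescaled outside milk proteins). Fads1 and Fads2 encode the desaturases that make arachidonic and other polyunsaturated acids from dietary precursors. Fads1 was at 41.9 ± 5.95 and 38.3 ± 9.51 FPKM and Fads2 at 23.1 ± 3.23 and 19.3 ± 5.04 FPKM, with log2 changes of -0.15 and -0.27 that did not pass the test (limma adjusted p = 0.738 and 0.468).

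Uptake and activation had 1 call among 4 genes. Acsl1 (ENSMUSG00000018796, protein-coding, chromosome 8, 46471041 to 46536051, plus strand of mm10 in the authors' deposited table) encodes a synthetase that joins long-chain fatty acids to coenzyme A. The windows before 2 of its starts in the RefSeq table are shown because it was the other gene called, again from GRCm38.p6 with motif matches in capitals.
Acsl1, chr8:46470787-46471036, plus strand: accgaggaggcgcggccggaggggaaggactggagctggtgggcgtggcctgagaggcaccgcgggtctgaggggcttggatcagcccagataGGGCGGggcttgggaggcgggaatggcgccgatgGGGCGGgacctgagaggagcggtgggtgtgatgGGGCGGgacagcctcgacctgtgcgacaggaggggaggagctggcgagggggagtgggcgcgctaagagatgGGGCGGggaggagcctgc
Acsl1, chr8:46490716-46490965, plus strand: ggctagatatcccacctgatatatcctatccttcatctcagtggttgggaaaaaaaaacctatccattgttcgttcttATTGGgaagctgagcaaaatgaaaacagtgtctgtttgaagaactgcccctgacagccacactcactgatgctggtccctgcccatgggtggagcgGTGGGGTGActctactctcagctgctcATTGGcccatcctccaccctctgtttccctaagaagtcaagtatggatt
The first window lies directly before the gene's most upstream start, with 72% G and C and 4 GC boxes, 157, 123, 90 and 18 bases before that start. The second lies inside the gene's span, with 48.4% G and C, CCAAT matches 172 and 49 bases before its start and the letters of the sterol element 76 bases before it. The counts are per gene, so they do not tell which of these starts the reads came from.

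FPKM of Acsl1 were 36.1, 57.1, 53.3, 44.9 and 36.0 in PBS 1 to 5 and 26.5, 27.2, 32.0, 31.8 and 20.9 in LPS 1 to 5. All LPS glands were below all PBS glands, by a narrow margin. The means were 45.5 ± 9.68 and 27.7 ± 4.56 FPKM, a log2 change of -0.69 ± 0.15 with a 95% interval of -1.02 to -0.36 (limma adjusted p = 0.0307). The call was lost without PBS 2 (adjusted p = 0.0545), PBS 3 (0.0606), PBS 4 (0.0773), LPS 2 (0.0779) or LPS 5 (0.0598). It was also lost without the 3 libraries rich in B and T cell transcripts (adjusted p = 0.161, log2 change -0.62) and without a filter on low values (0.0873). With the B and T cell covariate on all 10 libraries the call was kept (limma adjusted p = 0.0247). Over the 12 alternatives that left out no single library the adjusted p ran from 9.31e-08 to 0.161.

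Acsl4, the synthetase known for its preference for arachidonic acid, was at 45.3 ± 8.73 FPKM in PBS and 42.9 ± 9.98 in LPS glands (log2 change -0.09, limma adjusted p = 0.867). Acsl1 and Acsl4 were thus at nearly the same mean level per length in PBS glands. Within a library the ratio of Acsl1 to Acsl4 was 0.641 to 1.47 in PBS and 0.423 to 0.921 in LPS glands, with overlapping ranges. Acsl3, a synthetase of the endoplasmic reticulum and of lipid droplets, was near the filter at 1.14 ± 0.157 and 1.38 ± 0.357 FPKM.

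Lpl encodes lipoprotein lipase, which frees fatty acids from blood triglyceride at the capillary wall, and was the most abundant gene of this step. Its FPKM were 171.6, 150.8, 216.1, 167.4 and 179.7 in PBS 1 to 5 and 132.9, 146.5, 131.3, 188.3 and 138.2 in LPS 1 to 5. In LPS glands 4 of 5 libraries were below every PBS library, and LPS 4 was above 4 of the 5 PBS libraries (log2 change -0.27 ± 0.12, unadjusted p = 0.0481, limma adjusted p = 0.297). Fat cells also make Lpl.

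Triglyceride assembly held no gene that moved past the test. None of its 9 genes was called by limma, edgeR or DESeq2 or had an unadjusted p below 0.05, and 8 of 9 log2 changes lay within 0.2 of 0. Dgat1, one of the enzymes that add the last fatty acid, was the most abundant gene of the step. Its FPKM were 30.3, 34.0, 33.0, 30.8 and 32.6 in PBS 1 to 5 and 36.4, 37.6, 35.1, 36.3 and 33.0 in LPS 1 to 5. In 4 of 5 LPS libraries it was above every PBS library by a small margin (log2 change 0.15 ± 0.07, limma adjusted p = 0.349), and its sign turned when FPKM were rescaled outside milk proteins (-0.07). Dgat2, the unrelated enzyme of the same reaction, was at 27.5 ± 3.78 FPKM in PBS and 33.7 ± 10.2 in LPS glands (log2 change 0.25, limma adjusted p = 0.545).

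The glycerol 3-phosphate acyltransferases add the first fatty acid. Gpam, of the mitochondrial surface, was at 15.2 ± 1.92 FPKM in PBS and 15.6 ± 2.78 in LPS glands. Gpat4, of the endoplasmic reticulum, was at 26.4 ± 2.02 and 25.0 ± 1.57 FPKM, a spread of 1.23-fold over all 10 libraries. The intervals of both changes lay within 0.30 of 0 on the log2 scale, from -0.25 to 0.30 for Gpam and from -0.25 to 0.11 for Gpat4. The next fatty acid is added by the acylglycerol-phosphate acyltransferases. Agpat1 was at 33.3 ± 4.63 and 31.1 ± 3.21 FPKM, Agpat2 at 29.4 ± 4.19 and 28.6 ± 4.92 FPKM and Agpat3 at 6.02 ± 1.34 and 6.87 ± 1.34 FPKM, in PBS and LPS glands. The lipins remove the phosphate. Lpin1 was at 20.3 ± 5.38 FPKM in PBS and 20.5 ± 4.39 in LPS glands, and Lpin2 at 2.54 ± 0.640 and 3.04 ± 0.554 FPKM (log2 changes 0.03 and 0.19).

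Transcriptional control had no call by limma, edgeR or DESeq2 in either gene, and no unadjusted p below 0.05. Srebf1 was at 13.1, 26.3, 19.6, 17.3 and 16.2 FPKM in PBS 1 to 5 and at 14.5, 21.9, 20.9, 17.5 and 14.4 FPKM in LPS 1 to 5. Libraries of both groups mixed (log2 change -0.03 ± 0.17, 95% interval -0.40 to 0.34, limma adjusted p = 0.957). The gene-level value does not separate the transcripts that start at different Srebf1 promoters. Mlxipl was at 2.63 ± 0.631 FPKM in PBS and 2.07 ± 0.826 in LPS glands (log2 change -0.26, limma adjusted p = 0.532).

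**Figure D4:**
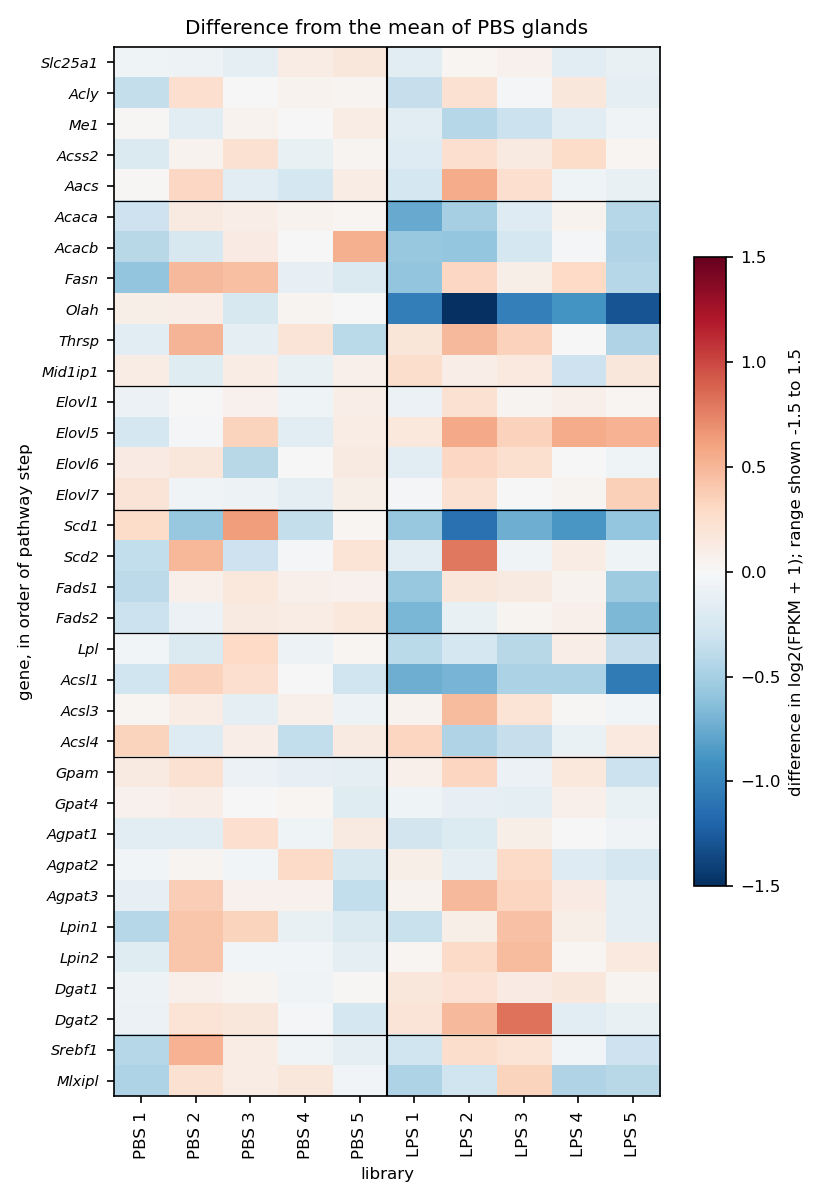
Difference of each library from the mean of PBS glands, in log2(FPKM + 1), for 34 genes in order of pathway step (lines divide the steps) and 5 PBS and 5 LPS libraries. Blue is lower and red higher, and the colour scale ends at 1.5 on either side. Olah, Acsl1 and Scd1 are blue in all 5 LPS columns, and the group changes of the other 31 genes lie within 0.5 of 0.

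The authors' deposited table of genes with changed expression lists 908 genes, 608 higher and 300 lower in LPS glands, the latter 1.3% of the 23059 genes above 0. That base includes genes under the filter used here, so this share is not like those over tested genes. It holds 3 of the 35 genes, all lower. In the authors' deposited table Olah had a log2 fold change of -1.09 with an adjusted p of 8.11e-08, Acsl1 of -0.72 with 9.67e-08 and Scd1 of -0.73 with 0.00323. On the reads recovered here from FPKM, edgeR called 2 of the genes lower, Olah (adjusted p = 0.00496) and Acsl1 (0.00477), against 1.16% of all tested genes (132 genes). DESeq2 called 4 lower, Olah (adjusted p = 4.28e-08), Acsl1 (9.31e-08), Scd1 (0.00186) and Acaca (0.04), against 2.73% of the 10969 genes it gave an adjusted p (300 genes). Neither tool called a gene of the pathway higher. Olah and Acsl1 were thus lower by limma, edgeR, DESeq2 and in the authors' deposited table, and Scd1 by DESeq2 and in that table. These results are not independent, since all used the same 10 libraries. The authors' tools included DESeq2, and the recovered reads equal the authors' counts for the listed genes, so likeness of the last 2 was built in.

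Cell markers were read beside these values. Of 13 tested epithelial markers, limma called Btn1a1, which encodes the butyrophilin of the milk fat globule, lower (215.0 ± 19.3 to 130.8 ± 22.9 FPKM, log2 change -0.73, adjusted p = 0.00864) and the keratin gene Krt8 higher (129.5 ± 14.2 to 188.4 ± 34.6 FPKM, log2 change 0.53, adjusted p = 0.0445). Of the 13 changes 10 were negative and 3 positive, against 38.6% negative over all tested genes. At an unadjusted limma p below 0.05, 5 were lower and 2 higher, against 4.07% and 12.4% of all tested genes. EdgeR called 1 lower and 0 higher, and DESeq2 3 lower and 1 higher. The summed level of the 13 was 250570 to 340611 FPKM in PBS and 208946 to 292502 FPKM in LPS glands. Of 10 neutrophil markers 8 were tested and 4 rose by limma, with summed levels of 14.1 to 25.4 FPKM in PBS and 22.4 to 91.1 FPKM in LPS glands. All 8 were higher at an unadjusted limma p below 0.05, and edgeR called 5 and DESeq2 6 of them higher. Of 7 myoepithelial markers Krt5 rose by limma, and the summed level was 409.6 to 540.2 FPKM in PBS and 548.9 to 680.8 FPKM in LPS glands. At an unadjusted limma p below 0.05, 4 of the 7 were higher, and edgeR called 1 and DESeq2 3 higher. Of 12 tested adipocyte markers and 7 tested macrophage markers limma called none (1 and 0 with an unadjusted p below 0.05; edgeR 0 of each, DESeq2 0 and 1). Adipocyte markers other than Lpl summed to 686.0 to 1440 FPKM in PBS and 685.1 to 1396 FPKM in LPS glands, and macrophage markers to 45.8 to 130.8 and 35.9 to 82.7 FPKM. B and T cell markers summed to 1.49 to 78.2 FPKM in PBS and 1.17 to 30.1 FPKM in LPS glands, and 7 of the 13 were at 0 in at least 1 library. No marker of any list was at 0 in all libraries. The part of epithelial, neutrophil, myoepithelial and fat cells in the values of Olah, Acsl1 and Scd1 was not tested.

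Around these 35 genes, 101 further lipid genes in 7 lists were found and 89 tested, of which 4 rose and 3 fell by limma. The falls concerned fatty acid uptake and binding (Fabp3 and Cd36) and the desaturase relative Fads6, and the rises the phosphatase gene Plpp2, the synthetase gene Acsl5, the NADPH source Idh1 and the oxidation gene Acadl. Their median log2 change was 0.08, against 0.05 over all tested genes. The background was 2.63% higher and 0.605% lower by limma over all tested genes. By edgeR 4 were higher and 2 lower, against 2.67% and 1.16% of all tested genes, and by DESeq2 6 were higher and 4 lower, against 4.98% and 2.73%. The counts are small and were not tested against these shares.

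Fabp3 encodes the fatty acid binding protein abundant in the lactating gland. It was at 1571, 1535, 514.9, 857.6 and 501.3 FPKM in PBS 1 to 5 and at 301.5, 202.5, 334.2, 279.6 and 145.9 FPKM in LPS 1 to 5. The groups did not overlap, and the PBS glands differed widely among themselves (log2 change -1.86 ± 0.34, limma adjusted p = 0.0156). In its transcripts 29.2% of the 50-base stretches are shared with another gene, Fabp3-ps1, so its level is uncertain. Cd36, a fatty acid translocase of the cell surface and milk fat globule, fell from 187.6 ± 26.3 to 115.5 ± 22.7 FPKM (log2 change -0.70 ± 0.14, adjusted p = 0.0193), also without overlap. In the same list of 15 tested genes Acsl5, a synthetase of mitochondria and endoplasmic reticulum, rose from 17.8 ± 1.75 FPKM in PBS to 26.2 ± 3.90 in LPS glands (log2 change of 0.53 at an adjusted p of 0.0202), in the direction opposite to Acsl1. Fads6 fell from 5.91 ± 1.55 to 2.43 ± 1.47 FPKM (log2 change -1.07, adjusted p = 0.0327), with overlapping groups, and was the 1 call among 11 elongation and desaturation partners.

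Among 8 tested acyltransferases and phosphatases Plpp2, which encodes a phosphatase of phosphatidic acid and related lipids, rose from 31.6 ± 2.72 FPKM in PBS to 47.5 ± 5.13 in LPS glands (log2 change of 0.57 at an adjusted p of 0.00825). Among 15 genes of NADPH and glycerol 3-phosphate supply Idh1, the cytosolic isocitrate dehydrogenase, rose from 12.7 ± 1.06 FPKM in PBS to 20.3 ± 4.15 in LPS glands (log2 change of 0.62 at an adjusted p of 0.0193). In both genes every LPS library was above every PBS library. Of 18 genes of SREBP, LXR and PPAR control limma and edgeR called none and DESeq2 called 1 lower, with unadjusted p below 0.05 for 1 lower and 2 higher. The most abundant of them were Akt1, an insulin signalling kinase, at 59.4 ± 4.34 and 59.5 ± 3.21 FPKM, and Nr1h2, the LXR beta receptor, at 43.7 ± 4.90 and 42.2 ± 3.20 FPKM.

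Mitochondrial fatty acid synthesis, which feeds lipoic acid rather than milk fat, had no call by limma, edgeR or DESeq2 among 6 tested genes and 1 unadjusted p below 0.05. Its acyl carrier protein gene Ndufab1 was at 14.9 ± 1.55 FPKM in PBS and 16.1 ± 2.15 in LPS glands, and its reductase gene Mecr at 12.0 ± 2.83 and 13.1 ± 1.99 FPKM. Among 16 genes of fatty acid oxidation Acadl, the long-chain acyl-CoA dehydrogenase, rose from 86.7 ± 4.86 to 146.3 ± 25.4 FPKM without overlap (log2 change 0.73 ± 0.11, adjusted p = 0.00673). All 16 changes of that list were positive as deposited, 12 after median-of-ratios scaling and 3 when rescaled outside milk proteins. As deposited the median of the list was 0.13, against 0.05 over all tested genes, of which 38.6% had a negative change.

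The 7 calls differed in how far they rested on single libraries. Plpp2, Acadl and Fabp3 were called in all 10 fits that left out 1 library, Idh1 in 8, Cd36 in 7, Acsl5 in 5 and Fads6 in 3. Without the 3 libraries rich in B and T cell transcripts none of the 7 was called. The adjusted p were 0.0863 for Plpp2, 0.0965 for Acadl, 0.102 for Fabp3 and Fads6, 0.115 for Idh1, 0.119 for Acsl5 and 0.185 for Cd36. The log2 changes ran from -1.72 for Fabp3 to 0.70 for Acadl. With the B and T cell covariate on all 10 libraries limma called 6 further lipid genes higher and 3 lower.

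**Figure D5:**
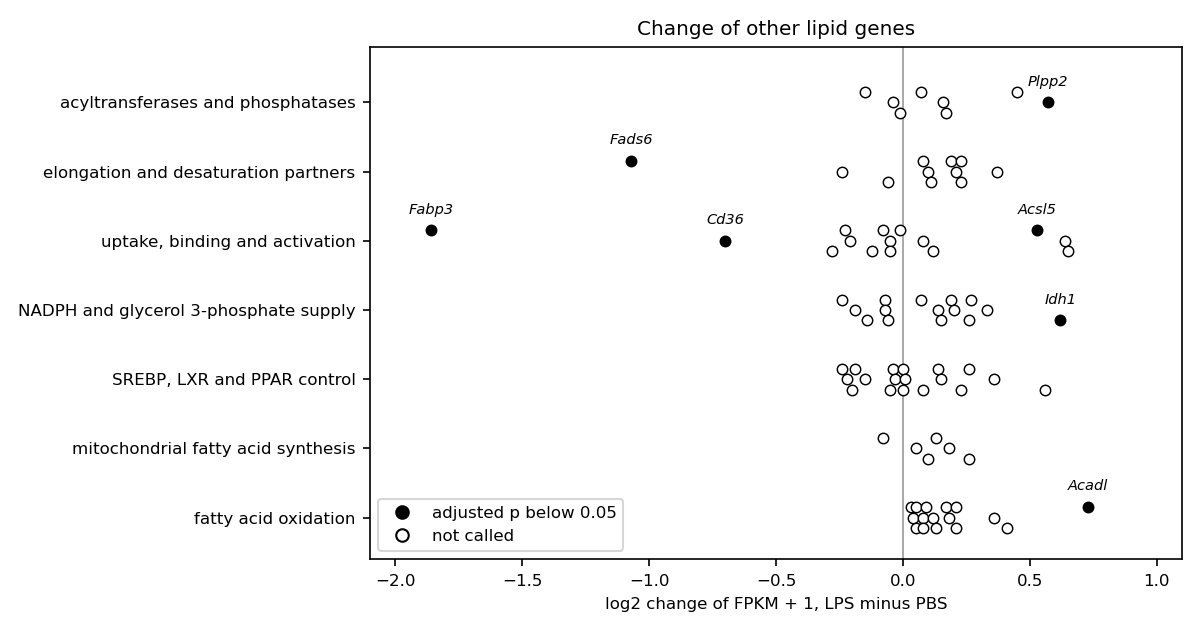
Log2 change (LPS minus PBS, on log2(FPKM + 1)) of 89 further lipid genes in 7 lists. Each point is a gene, and filled points with a name are genes with an adjusted p below 0.05. Fabp3 and Cd36 lie on the left at -1.86 and -0.70, and Acadl on the right at 0.73.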

How the data were processed

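Glands were frozen and 1 µg of RNA went into each library, per the labels. The submitters' processing notes name mouse build mm10 and the tools DESeq2 (with the version 2), HTSeq 0.6.1 and STAR 2.5. Settings, annotation release and strand are not given in the sources used here. The authors deposited FPKM of 35275 genes (12216 of them 0 throughout). For 908 listed genes the authors deposited whole read counts, normalized values (a signal, the count over a size factor per library), log2 fold changes and p-values, per the file headers. FPKM agreed between both deposited tables within a relative difference of 2.92e-08.

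Read numbers for all 23059 genes above 0 came out whole within 0.002 reads once a gene length and 1 depth per library were solved from the deposited FPKM and counts, and made up 99.99% of the depth. The genes and lists were chosen with earlier results of these data known. The test was limma 3.58.1 (moderated, two-sided, intensity trend, R 4.3.3) on log2(FPKM + 1), which understates the changes of low genes, and group was its single term. Alternatives were pseudocounts of 0.1 and 5, no filter, a filter on a mean FPKM of 5, 2 other scalings, a replicate block, no trend, tests of the recovered reads by the quasi-likelihood method of edgeR 4.0.16 and by DESeq2 1.42.0, a B and T cell covariate, and fits without single libraries or the 3 richest in B and T cell transcripts. The procedures were tested on simulated data. By the naming rule, values in every library were given for called genes, Olah, Fasn, genes whose groups did not overlap and the highest gene of each step, and group means for the rest. Of each further lipid list up to 4 called genes were named, or the 2 of highest mean FPKM. Symbols were found for 34493 genes. Promoter windows are RefSeq's. Shared stretches were counted as 50-base words of GENCODE M21 transcripts.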

Additional observations from a re-analysis of the deposited data

Results flagged for a closer look

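Of 82 groups of 5 libraries examined (41 genes, each in PBS and in LPS glands), 6 held a library far from the other 4, where chance alone gives about 1 in 20 groups. Acaca was lowest in PBS 1 at 29.0 FPKM, with the other PBS glands at 37.1 to 40.0. Fads1 was also lowest in PBS 1, at 31.5 FPKM against 43.6 to 46.6. Scd2 was highest in LPS 2 at 31.6 FPKM, against 15.7 to 19.3 in the other LPS glands. Lpl was highest in LPS 4 at 188.3 FPKM, against 131.3 to 146.5. Lpin2 was highest in PBS 2 at 3.66 FPKM, against 2.08 to 2.41. Mlxipl was highest in LPS 3 at 3.53 FPKM, against 1.59 to 1.92. PBS 2 and LPS 3 were among the 3 libraries rich in B and T cell transcripts. None of the 6 genes was called by limma as reported, DESeq2 called Acaca lower (adjusted p = 0.04), and the source of these values was not tested.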

How the results depend on the processing

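The negative changes of Olah, Acsl1 and Scd1 kept their sign in all 22 alternatives. In 17 genes that were not called the sign turned in at least 1 alternative (55 turns in all), with changes of at most 0.17 as reported. No gene of the pathway was higher as reported, against 1 with the replicate block and 0 to 1 without single libraries. Lower were 2, against 1 without a filter, 4 with DESeq2, 1 without the 3 libraries rich in B and T cell transcripts and 1 to 2 without single libraries (1 without PBS 3, PBS 4, LPS 2 or LPS 5). Of the further lipid genes 4 were higher, against 2 without a filter, 0 without the 3 libraries and 2 to 5 without single ones (2 without PBS 1 or PBS 4). Lower were 3, against 0 without a filter, 7 when scaled to the sum outside milk proteins, 0 without the 3 libraries and 1 to 3 without single ones (1 without PBS 1 or LPS 2). Over all tested genes 300 were higher, against 101 without a filter, 128 outside milk proteins, 546 with DESeq2, 635 with the covariate, 28 without the 3 libraries and 121 to 429 without single ones. Lower were 69, against 25 without a filter, 115 with median-of-ratios scaling, 348 outside milk proteins, 132 with edgeR, 300 with DESeq2, 118 with the covariate, 7 without the 3 libraries and 27 to 88 without single ones. Without PBS 1, PBS 4, LPS 2 or LPS 3 both of these counts moved by more than 1.5 times. So did the higher count without PBS 5 (178) and the lower count without LPS 5 (40). As deposited 300 were higher and 69 lower, with median-of-ratios scaling 254 and 115, and outside milk proteins 128 and 348. The cause of these moves was not tested. Genes with few reads, such as Elovl3, could not be tested at this depth.

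The deviations of same-numbered libraries from their group means correlated at 0.482, 0.362, 0.0993, 0.103 and 0.494. With 5 candidates for each library, 5 of 10 libraries correlated best with their own number. The rule for taking numbers as pairs asked for every correlation to be above 0.1, and 1 was under it. The labels do not say whether glands of the same number share a mouse, and these values do not settle it. The test without pairs was therefore kept as the main one for want of a label, and the values are not evidence against pairs. With the replicate block limma called 1 gene of the pathway higher, Elovl5 (adjusted p = 0.0275), and 4 lower, Olah (0.00337), Acsl1 (0.00273), Scd1 (0.00693) and Acaca (0.0418). The block gave 13 higher further lipid genes, and 962 higher and 267 lower over all tested genes.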

Other observations

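Libraries numbered 1 and 5 were the lowest of both groups for 6 of the 34 tested genes: Fasn, Fads1, Acsl1, Agpat3, Lpin1 and Srebf1. That is 17.6% of the genes of the pathway, against 13.8% of all tested genes (1572 genes). The count was made after the values were seen, and neither share was compared with what unrelated numbers would give. The 4 genes of desaturation summed to 762.3, 482.6, 980.3, 537.2 and 679.8 FPKM in PBS 1 to 5 and to 447.8, 366.0, 434.2, 402.5 and 446.1 FPKM in LPS 1 to 5, a narrower spread in LPS glands that rests mainly on Scd1. The 9 genes of triglyceride assembly summed to 176.2 to 209.6 FPKM in PBS and 176.3 to 231.6 FPKM in LPS glands.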
